A study of Homo sapiens and Mus musculus with 6 samples.

Results

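The 10 genes described here encode Fc receptors and Fc receptor-like proteins: *FCRL1*, *FCRL2*, *FCRL3*, *FCRL4*, *FCRL5*, *FCRLA*, *FCRLB*, *FCGR2A*, *FCGR2B* and *FCER2*. Their contacts were taken from the Promoter CHi-C calls of GM12878 cells by keeping each call that lists a symbol of these genes at the bait or at the other end. The rule gave 74 of 92929 calls (0.0796%, Wilson 95% interval 0.0634% to 0.0999%), in 69 distinct fragment pairs, and 8 of the 10 genes had at least 1 call. *FCRL3* and *FCGR2B* had none under their own symbol. Baits without a call are not listed, so the share of all captured baits with a call was not computed here. The count of 8 of 10 thus does not set these genes apart.

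Promoter CHi-C captures the *Hin*dIII fragments that carry promoters (the baits) from a Hi-C library and sequences the fragments ligated to them (the other ends), which asks what each promoter touches in the nucleus. GM12878 is a lymphoblastoid cell line, labelled as B lymphocyte, grown in suspension and fixed with formaldehyde, and it was represented by 3 biological replicates. Mouse J1 ES cells of strain 129S4/SvJae, passaged to remove feeder fibroblasts, were represented by 2 replicates and are used only where mouse genes are named. For each cell type the authors called interactions on all replicates together, so a value here has no replicate spread, no difference was tested, and intervals cover counting error only. The intervals treat calls as independent, though many calls share a bait or end on adjoining fragments, so they may be too narrow. All human cells came from 1 line, and RNA was not measured in these samples, so the cell type could not be checked against marker genes. Each call carries a read count, which the authors combined over replicates and rounded, and a CHiCAGO score, which rises as a pair becomes less likely under the background model; listed calls score at least 5. Coordinates of fragments are those of hg19.

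Classical Fc receptors bind the constant part of antibodies. *FCGR2A* encodes an activating low-affinity IgG receptor of myeloid cells and platelets, whereas *FCGR2B* encodes the inhibitory IgG receptor of B cells, which recruits phosphatases to dampen signalling from the B cell receptor. *FCER2* encodes CD23, a C-type lectin that binds IgE on B cells. *FCRL1* to *FCRL5* are transmembrane relatives of the Fc receptors, expressed mainly by B cells, with activating or inhibitory motifs in their tails, and *FCRLA* and *FCRLB* encode intracellular relatives. The *FCRL1* to *FCRL5* genes form a head-to-tail array on chromosome 1, and *FCGR2A*, *FCGR2B*, *FCRLA* and *FCRLB* lie together farther along the same chromosome. *FCER2* lies on chromosome 19 beside other C-type lectin genes.

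Because contacts are read from promoter fragments, promoter sequence is shown first. RefSeq promoters (GRCh38.p14, from 250 bases before to 50 after each start) were found for all 10 genes, 14 promoters in all. The ETS core word GGAAGT, read on both strands and searched for only after the data had been seen, was present in 6 of the 14 promoters, those of *FCRL1*, *FCRL2*, *FCRL4*, *FCRL5*, *FCRLA* and *FCGR2B*, and in 22.8% of all 35116 promoters of this length. In each of the 6 promoters it read in the antisense direction, as ACTTCC. The share of each direction among all promoters with the word was not counted, so the direction does not set these genes apart. Stretches of 60 bases that end at or before the start are printed in the direction of transcription, with coordinates in GRCh38.p14 and every ACTTCC in capitals; they show the shared word in genes of both chromosome 1 clusters.
FCRL1 (chr1:157820121-157820180, minus strand): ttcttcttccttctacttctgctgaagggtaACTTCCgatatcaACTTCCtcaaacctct
FCRL2 (chr1:157777158-157777217, minus strand): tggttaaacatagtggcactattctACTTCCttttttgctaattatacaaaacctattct
FCRL4 (chr1:157598086-157598145, minus strand): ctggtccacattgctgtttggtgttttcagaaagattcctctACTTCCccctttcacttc
FCRL5 (chr1:157552516-157552575, minus strand): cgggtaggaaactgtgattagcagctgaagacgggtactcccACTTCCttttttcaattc
FCRLA (chr1:161707160-161707219, plus strand): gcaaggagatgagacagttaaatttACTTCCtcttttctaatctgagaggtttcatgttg
FCGR2B (chr1:161663083-161663142, plus strand): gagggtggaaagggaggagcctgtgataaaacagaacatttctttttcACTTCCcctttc

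In *FCRL4* and *FCRL5* the word began 18 bases before the start, and in *FCRL1* the nearest of its 3 copies began 16 bases before it. The longer word GAGGAAGT, which contains GGAAGT and is often bound by the B cell and myeloid factor PU.1, was present in the promoters of *FCRL1* and *FCRLA* and in 2.59% of all promoters. The octamer ATGCAAAT, the site of POU factors in B cell promoters, was found in 1 of the 14, a promoter of *FCRLB*, against 1.77% of all promoters. It read in antisense as ATTTGCAT, in capitals in the stretch printed here.
FCRLB (GRCh38.p14 chr1:161721454-161721513, plus strand): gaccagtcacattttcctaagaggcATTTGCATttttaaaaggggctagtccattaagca

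None of the 14 promoters held the core words searched for EBF1, NF-kB or CTCF on either strand, which 1.21%, 1.91% and 2.41% of all promoters held. A word in a promoter is a description of these letters only, and binding was not measured.

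All 74 calls were *cis*-chromosomal, and a count of 0 *trans*-chromosomal calls of 74 allows a share of up to 4.05%, where 0.31% of all calls were *trans*-chromosomal, so a count of 0 does not set these genes apart. The *FCRL1* to *FCRL5* cluster had 16 calls, the *FCGR2A* to *FCRLB* cluster 51 and *FCER2* 7, and 0 calls joined the 2 chromosome 1 clusters. The median distance between fragment midpoints was 120.3 kb (exact 95% interval of the median 45.1 to 199 kb) against 174 kb over all *cis*-chromosomal calls. Of the 74 calls, 36 spanned under 100 kb (48.6%), and of all calls 29.8% did. Both ends were baits in 19 calls (25.7%, Wilson 17.1% to 36.7%), where the share over all calls was 29.4%. A score of at least 10 was reached by 8 calls (10.8%, Wilson 5.58% to 19.9%) against 16.3% of all calls, and 11 calls scored under 5.5, close to the threshold of the list. The median read count was 18 for these genes and 16 for all calls.

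**Figure D1:**
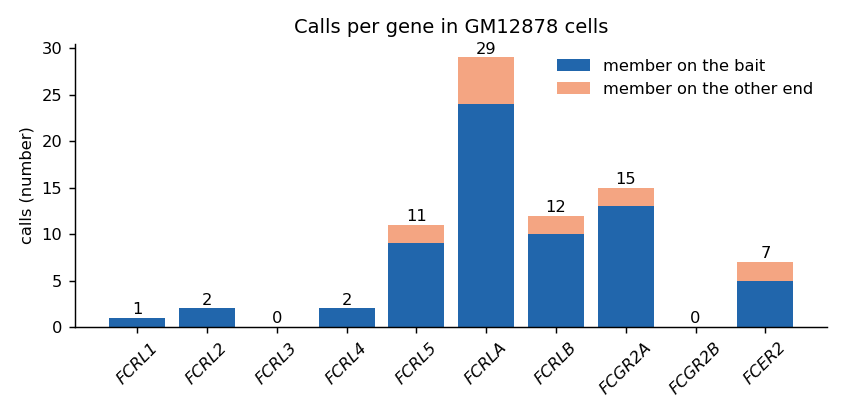
Number of calls (y axis) of each of the 10 genes (x axis) in GM12878 cells, split by whether the gene was on the bait or on the other end; the number on each bar is the sum, and a call between members counts for both. *FCRLA* stood highest with 29, and *FCRL3* and *FCGR2B* were at 0.

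Among the 15389 baits with a call, the median was 3 calls per bait (quartiles 1 to 7). *FCRLA* had 24 calls as a bait, more than 95.8% of these baits. *FCGR2A* followed with 13, *FCRLB* with 10 and *FCRL5* with 9, each more than at least 80.0% of baits. *FCER2* had 5 calls, *FCRL2* and *FCRL4* 2 each and *FCRL1* 1. The IgG receptor gene and the genes of the intracellular relatives were thus above the upper quartile of all baits, as was *FCRL5*, while the other 3 *FCRL* genes with calls were below the median. Fragments differ in size, from 688 bp for *FCGR2A* to 25493 bp for *FCRL5*, and the part of fragment size in the number of calls was not tested.

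In the *FCRL* array, all 5 genes are transcribed towards lower coordinates, in the order *FCRL5*, *FCRL4*, *FCRL3*, *FCRL2*, *FCRL1* from low to high. No call joined fragments listed under 2 of these symbols. Of the 16 calls with a symbol of the array, 7 ended on fragments over *FCRL4*, the gene of an inhibitory receptor of memory B cells. A further 5 calls to that gene came from 2 baits that are not members, so that 12 calls ended on 6 fragments that overlap it, of which chr1:157539442-157543548 overlaps the end of the gene by its edge only.

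The *FCRL5* bait (chr1:157507278-157532770), which holds the start of the gene for a receptor that binds IgG, made 4 of these 12 calls. The strongest reached chr1:157543549-157547735, 25.6 kb away, with 48 reads and a score of 8.15, and its neighbour chr1:157547736-157549957 had 39 reads and a score of 5.96. The *FCRL2* bait (chr1:157745093-157751028) made both of its calls to this same pair of fragments, from the other side and across 202 and 199 kb, with 11 reads (score 5.84) and 12 reads (score 6.69). These 2 fragments, in the 3′ part of *FCRL4* and overlapping its exons, were 100% of the fragments called from *FCRL2* and 22.2% of those called from *FCRL5*. The only call of *FCRL1*, across 236 kb with 10 reads and a score of 5.51, ended on the next fragment along, chr1:157549958-157556421.

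A bait listed as *RP11-367J7.3* (chr1:157660482-157663285), which lies inside *FCRL3*, shared the most called fragments with the members of the array. It called 5 fragments, of which 3 were also called from *FCRL* baits (60.0% of its own fragments and 25.0% of the 12 called from the array). It reached the same pair in *FCRL4* with 16 reads (score 10.2) and 13 reads (score 7.11), and the fragment called from *FCRL1* with 12 reads (score 6.03). Its other calls went to a further fragment in *FCRL4*, with 13 reads and a score of 6.77, and to the *FCRL5* bait. The call to *FCRL5* spanned 142 kb, with 23 reads and a score of 10.3, the highest score of any call with an *FCRL1* to *FCRL5* symbol. The bait next to *FCRL3* on its other side (chr1:157670699-157674412), which the list names NA, also reached the fragment called from *FCRL1*, with 14 reads and a score of 8.57. It had 1 other call, to a fragment within *FCRL2* 68.6 kb away with 13 reads and a score of 5.14. These 2 were the only non-member baits that shared a called fragment with the array.

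*FCRL3*, which encodes a receptor for secretory IgA, was missing by name but not by position. Its 3 annotated coding starts lie on chr1:157663286-157670698, a fragment that is listed without a symbol, has 0 calls as a bait and was called 1 time, from *FCRL5*, with 18 reads and a score of 6.2 across 147 kb. The starts lie 139 bp or more from the edge of the fragment, and the bait named NA begins just beyond that edge. Read by position, the array thus had a call from the promoter fragment of *FCRL5* to that of *FCRL3*, and read by symbol it had none. *FCRL4* was itself a bait (chr1:157567842-157569015) and made its 2 calls towards *FCRL3*, to *RP11-367J7.3* with 11 reads (score 5.25, 93.5 kb) and to the bait named NA with 11 reads (score 6.59, 104 kb).

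**Figure D2:**
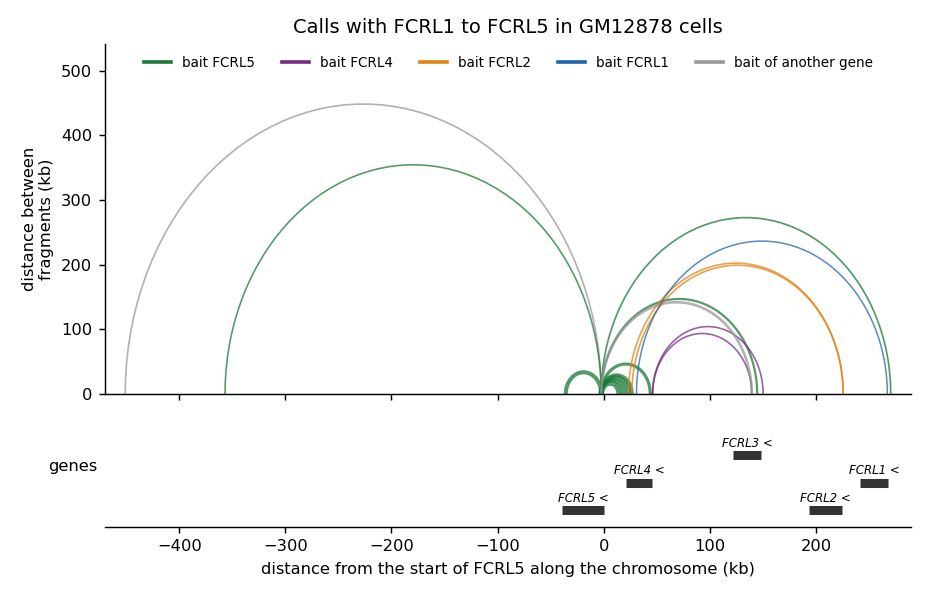
Each arc joins the midpoints of a bait and an other end; the x axis is the distance in kb from the start of *FCRL5*, the height of an arc is the distance between its ends in kb, line width grows with reads, and black bars are genes with the direction of transcription. Arcs of *FCRL2* and *FCRL1* come down on the body of *FCRL4*, where short arcs of *FCRL5* end too; calls between non-members are not drawn.

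Other calls of *FCRL5* ended outside *FCRL4*. The call with the most reads, 61, and the highest score, 9.53, reached the unbaited fragment chr1:157534503-157539441, between *FCRL5* and *FCRL4*. Its midpoint lay 16.9 kb away, but the *FCRL5* fragment is 25493 bp long and ends at chr1:157532770, close to it. Most of that distance thus lies within the *FCRL5* fragment. The longest, 355 kb towards lower coordinates, had 11 reads and a score of 5.48. A call with 12 reads and a score of 5.03 ended 273 kb away on chr1:157791023-157794676, which adjoins the *FCRL1* fragment and holds no protein-coding gene. *ETV3L*, an ETS family gene, called the *FCRL5* fragment from 449 kb with 12 reads and a score of 5.62.

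The *FCGR2A* to *FCRLB* cluster was joined by 5 calls between members, in 3 pairs. *FCRLA* (chr1:161674767-161677875) and *FCRLB* (chr1:161688463-161695703) lie 15.8 kb apart and were called from both ends with 75 reads, at a score of 5.69 from *FCRLA* and 10.9 from *FCRLB*. *FCGR2A* (chr1:161475215-161475902) and *FCRLB* were called from both ends across 217 kb with 13 reads, at scores of 7.42 and 6.23. *FCGR2A* reached *FCRLA* across 201 kb with 19 reads and a score of 9.31, and this pair was called from the *FCGR2A* end only. The promoter of an activating IgG receptor was thus in called contact with those of both intracellular relatives, across the genes that lie between them. Of the 14 pairs of baited fragments with a member, 5 were called from both ends (35.7%), where 18.5% of all baited pairs were. With so few pairs, and neither an interval nor a test, this share does not set these genes apart. In all 5 the read count was equal from both ends and the scores differed, by a median of 3.5. Over all baits, 4225 of the 4262 pairs called from both ends had equal reads, and the median score difference was 2.9.

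*FCGR2A* made 12 of its 13 calls towards *FCRLA*, and 10 of them spanned 200 to 500 kb on 7 to 19 reads. Its highest score, 10.6, was for chr1:161718049-161719354, across 243 kb with 11 reads, and its longest call, 265 kb with 7 reads and a score of 5.58, ended in an intron of *ATF6*, the gene of an unfolded protein response factor. The call with the most reads, 32, ended 6.73 kb away on a fragment with another annotated start of *FCGR2A*. The 10 long calls had a median of 9 reads, against 12 over all calls of that distance class, for baited and for unbaited other ends alike.

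*FCRLA* made 13 calls to higher and 11 to lower coordinates. Within 50 kb, its 13 calls had 31 to 78 reads. The highest score, 14.9, belonged to chr1:161702238-161705356, past *FCRLB* at 27.5 kb, with 60 reads, and the call with the most reads, 78, spanned 5.05 kb and scored 6.61. Farther away, 7 calls spanned 200 to 500 kb with 11 to 21 reads, and 6 of these 7 fragments lie side by side just before *FCGR2A*. The strongest of them, chr1:161444381-161449698, lay 229 kb away with 21 reads and a score of 13.4. The longest call, 282 kb, had 11 reads and a score of 5.51. *FCRLB* made all 10 of its calls to lower coordinates, up to 240.2 kb, with its highest score and its most reads in the call to *FCRLA*.

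**Figure D3:**
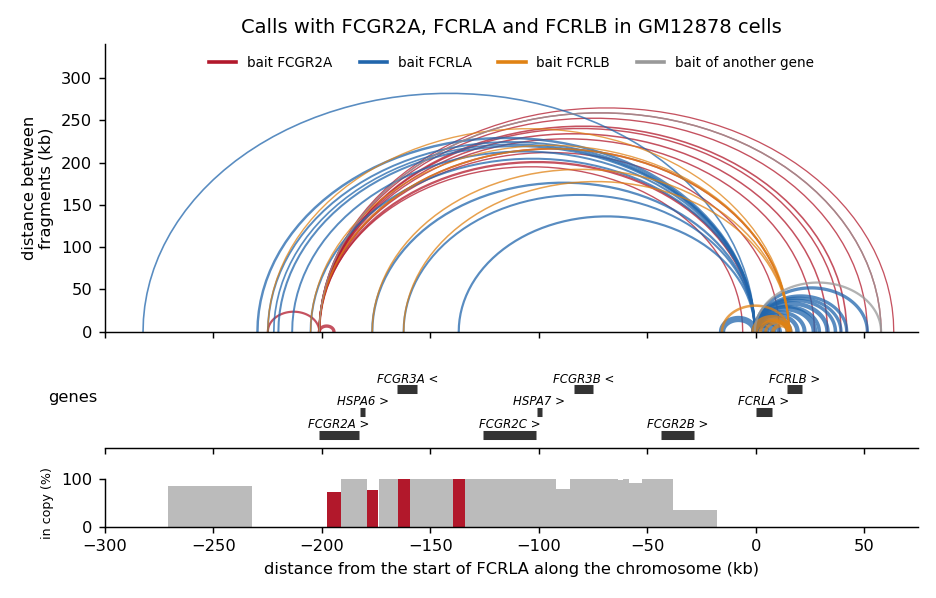
Arcs of calls with *FCGR2A*, *FCRLA* or *FCRLB* in kb from the start of *FCRLA*, drawn as for the *FCRL* array, above the genes and, in the lowest panel, the percent of each *Hin*dIII fragment that has a copy in the region (red, fragments listed in a call; grey, fragments in no call); 2 calls over 400 kb, from *FCER1G* and *APOA2*, are outside the plot. Arcs start and end on both sides of the stretch from *FCGR2C* to *FCGR2B*, where no arc ends.

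The 3 baits shared part of their called fragments. How often other baits at like distances share fragments was not counted, here or for the *FCRL* array and *FCER2*. The sharing is thus described only and does not set these genes apart. Of the 31 fragments called from them, 16 were called from 1 bait only, 14 were called from 2 of the baits and 1, chr1:161449699-161453987, from all 3, with 18 reads from *FCGR2A*, 15 from *FCRLA* and 8 from *FCRLB*. *FCRLA* and *FCGR2A* shared 8 fragments (33.3% of those of *FCRLA* and 61.5% of those of *FCGR2A*), 7 were shared by *FCRLA* and *FCRLB* (29.2% and 70.0%), and *FCRLB* and *FCGR2A* shared 2 (20.0% and 15.4%). The bait of *DUSP12*, a dual specificity phosphatase gene, called 3 fragments, all among the 31. *ATF6* shared 2 of its 5 fragments. *ATF6* called *FCGR2A* with 9 reads (score 7.71, 259 kb) and *FCRLA* with 19 reads (score 6.68, 58.2 kb). *FCER1G* encodes the gamma chain with which activating Fc receptors signal, and its bait called *FCRLA* across 492 kb with 9 reads and a score of 9.09. *APOA2*, an apolipoprotein gene, called *FCRLA* with 6 reads and a score of 7.17 across 483 kb.

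CTCF is a factor found at many loop anchors. Its core word, as used for the promoters, was searched for on both strands in fragments after the data had been seen, and 8 of the 48 fragments called from member baits held it, where fragments of like length (within 10%) on the same chromosome held it in 13.2% on average. The 5 words in called fragments on the 2 sides of the *FCGR2A* to *FCRLB* cluster are printed in capitals, on the plus strand of hg19. The fragments before *FCGR2A*, chr1:161444381-161449698 and chr1:161455179-161458204, were called from *FCRLA*. They are named first and second by coordinate among those with the word, and neither adjoins the *FCGR2A* fragment. The fragment that does, chr1:161467881-161475214, did not hold the word. The fragment past *FCRLB* was called from *FCRLA* and *FCGR2A*, and the *ATF6* bait, called from *FCGR2A*, held the word 2 times. Both words before *FCGR2A* read forward, that past *FCRLB* reads as the reverse complement, and the *ATF6* bait holds the word in each direction, forward first. How often words around other baits lie in such directions was not counted, and binding of CTCF was not measured. Neither the count nor the directions thus set these fragments apart. Words in fragments called from *FCRL4*, *FCRL5* and *FCER2* are not printed here.
First fragment before FCGR2A (chr1:161449629-161449668): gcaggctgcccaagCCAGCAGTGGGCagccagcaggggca
Second fragment before FCGR2A (chr1:161456962-161457001): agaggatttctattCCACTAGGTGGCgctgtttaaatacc
Fragment past FCRLB (chr1:161711415-161711454): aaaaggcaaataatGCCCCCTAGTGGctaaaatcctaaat
ATF6 bait, forward (chr1:161733460-161733499): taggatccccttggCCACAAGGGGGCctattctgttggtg
ATF6 bait, reverse (chr1:161736289-161736328): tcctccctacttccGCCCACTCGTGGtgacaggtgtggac

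*FCGR2B* had no call at either end, and neither did any fragment from chr1:161542506 to chr1:161658717, a stretch of 116 kb and 29 fragments that holds *FCGR2C*, *HSPA7*, *FCGR3B* and *FCGR2B*. This part of the chromosome is known to have arisen by duplication. In the region from the first to the last fragment called from the 3 baits, 52 fragments had at least 50% of their length in a copy elsewhere in the region (95% identity or more over at least 1000 bp), and 4 of the 52 were listed in a call. Of the 37 other fragments, 29 were listed, and 27 of the 37 were called from the 3 baits. Those calls set the bounds of the region, so this share follows in part from the choice of region. Over the whole digest, 56775 of 837157 fragments were listed. The 52 copied fragments include some as short as 24 bp. In the stretch without calls 28 of the 29 fragments were copied to that extent, and the fragment with the starts of *FCGR2B* (chr1:161624347-161632973) was so over 100% of its length. The longest copy ran over 26597 bp at 98.9% identity, from chr1:161619297 to chr1:161645839, and covers that fragment. Whether the *FCGR2B* fragment was a bait is not given in the sources used here, and the part of the copies in the absence of calls was not tested.

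Copies also touch calls that were made. The fragment chr1:161511679-161517149, over an exon of the IgG receptor gene *FCGR3A*, was called from *FCRLA* (16 reads, score 6.67) and *FCRLB* (10 reads, score 6.83), and its longest copy, over 3784 bp at 97.8% identity, lies by *FCGR3B*. The part of the copy in these calls was not tested. A stretch of 60 bases outside annotated exons and its copy are shown on the plus strand of hg19, chosen as the first with few differences, with the differing base in capitals.
FCGR3A, called (chr1:161514779-161514838): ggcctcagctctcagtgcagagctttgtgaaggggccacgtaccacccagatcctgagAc
FCGR3B, copy (chr1:161596225-161596284): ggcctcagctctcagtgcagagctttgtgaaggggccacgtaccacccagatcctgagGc

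*FCER2* (chr19:7763087-7768323) contacted genes of its own neighbourhood. Its highest score, 11.8, and its most reads, 38, were for a bait listed under *C19orf59*, *CTD-3214H19.16* and *TRAPPC5*, a trafficking complex gene. That bait lay 16.0 kb away between midpoints, overlaps the body of *FCER2* and called *FCER2* in turn with a score of 5.41. It is 24236 bp long and ends at chr19:7761777, close to the *FCER2* fragment, so most of the 16.0 kb lies within the fragments themselves. *CD209*, which encodes the lectin DC-SIGN, was contacted at 45.1 kb with 29 reads, at a score of 8.93 from *FCER2* and 5.43 from *CD209*. *CLEC4G*, another lectin gene, was contacted at 29.2 kb with 31 reads and a score of 7.17, from *FCER2* only. The remaining 2 calls reached unbaited fragments without a coding gene, at 79.8 kb with 11 reads (score 5.43) and at 92.2 kb, the longest, with 13 reads (score 8.24). Among other baits, *CLEC4G* shared 3 of its 7 fragments with *FCER2* (60.0% of the 5 of *FCER2*), *CLEC4M* 2 of 2 and *LRRC8E* 2 of 3.

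Read counts were set against those of all calls of like distance. Under 50 kb, the 24 calls to unbaited fragments had a median of 39.5 reads (18 to 78) against 37 for all such calls, and 13 of the 24 were above that median. From 200 to 500 kb, the 20 calls to unbaited fragments had a median of 11 (7 to 21) against 12, and 5 were above it. From 50 to 100 kb the median was 13 for 3 calls and 22 for all, and from 100 to 200 kb it was 14 for 8 calls and 17 for all. Calls of these genes over 500 kb were not listed. Of all 92641 *cis*-chromosomal calls, 2885 to baited and 4855 to unbaited other ends spanned over 500 kb. The difference was not tested.

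**Figure D4:**
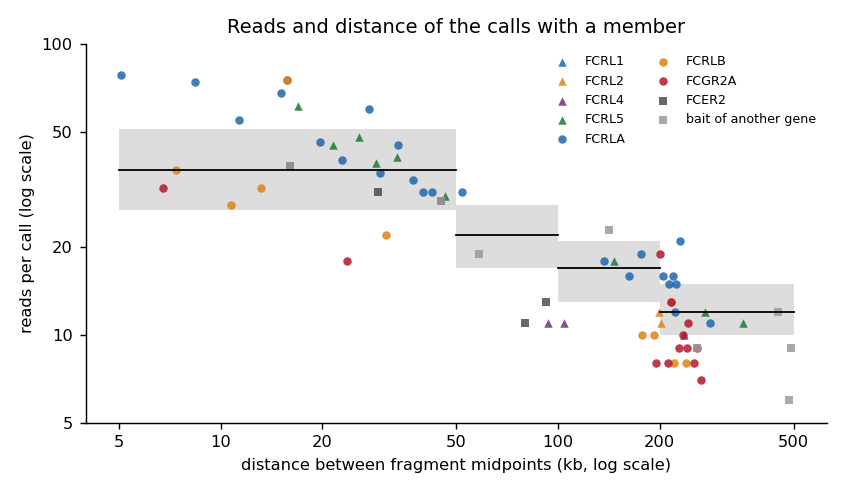
Reads per call (y axis, log scale) against the distance between fragment midpoints (x axis, log scale) for the 74 calls, coloured by the gene on the bait; black lines and grey bands are the median and quartiles of all GM12878 calls to unbaited fragments in 4 classes of distance. *FCRLA* calls over 100 kb (11 to 21 reads) lie mostly higher than those of *FCGR2A*, most of which have 7 to 11 reads.

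Other genes of the pathway were read from the same list. Of 12 other Fc receptor genes, 7 had a call as a bait, with a median of 11 calls among those 7. The 5 without a call under their own symbol were *FCGR1A*, *FCGR1B*, *FCGR2C*, *FCGR3A* and *FCGR3B*. Whether these 5 had baits is not given in the sources used here, and by position a fragment over *FCGR3A* was called from *FCRLA* and *FCRLB*. Calls of a gene with 2 baits, such as *FCGRT*, were summed over its baits. All 11 signalling partners examined had a call, with a median of 4, from 1 for the kinase gene *SYK* and the phosphatase gene *INPP5D* to 24 for the phosphatase gene *PTPN6*. *LYN*, whose kinase phosphorylates the tails of these receptors, had 23. The CD23 partners *CR2* (CD21) and *ADAM10*, the protease that sheds CD23, had 3 and 17. The members with calls had a median of 7 as baits, and the median over all symbols with a call was 4. How many of all captured genes had a call was not computed, so the counts of genes with a call do not set these lists apart. Of all these partner genes and receptors, *FCER1G* had the only call with a member.

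In mouse ES cells, which were called separately and on fewer replicates, 10 of 12 genes of the same families had a call, 85 calls in all, with none for *Fcrla* and *Fcgr3*. Calls between these genes numbered 3 and lay in the *Fcrl* cluster. *Fcrls* and *Fcrl1* were called from both ends across 118 kb with 19 reads, at scores of 11.6 and 5.44, and *Fcrls* reached *Fcrl5* across 176 kb with 11 reads and a score of 6.57. *Fcgr2b* had 1 call, across 6.78 kb with 29 reads. *Fcer2a* had 6 calls as a bait and 11 as an other end, among them calls from *Clec4g* (27 reads, score 11.6) and *Cd209a* (9 reads, score 8.58), whose human relatives *CLEC4G* and *CD209* were in contact with *FCER2*. The share of all captured mouse baits with a call was not computed, so 10 of 12 does not set these genes apart. Differences between the cell types were not tested.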

How the data were processed

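Per the labels and the Methods, HiCUP was used by the authors to align the libraries (human to hg19, mouse to mm9, with Bowtie 1.1.0 in the submitters' processing notes) and to clear artefacts and duplicates, before CHiCAGO was run on all replicates of a cell type. The deposited CHiCAGO score and the deposited read number, a rounded combination over replicates weighted by sample size and so treated as a score and not as a raw count, were used as given. Depth per replicate is not in these lists, and precision is limited by the number of calls.

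Calls were counted as listed. The hg19 sequence was digested with *Hin*dIII in silico, and all 56775 fragments in the GM12878 list matched. Genes were placed with GENCODE annotation of the same build, copies were found with blastn 2.17.0, and intervals were computed with scipy 1.17.1 in Python 3.11.15. Matching and intervals were tested on simulated data. For each member bait, the calls with the highest score, the most reads and the longest distance are named, with every call between members and, per cluster, up to 3 other baits that share most fragments (1 of those near *FCGR2A* is not reported here). The members and lists were chosen with earlier results of these data known. GGAAGT, GAGGAAGT, the CTCF word in fragments the copies and the fragments in *FCRL3* and *FCRL4* were examined after seeing the data. Hi-C was not used here.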

Additional observations from a re-analysis of the deposited data

How the results depend on the processing

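No paired analysis was possible because the replicates of each cell type were pooled by the authors into 1 set of calls, and for the same reason no replicate could be left out. Of 32 alternative values of the 5 main results, 23 stayed within 1.5 times a count or within the interval of a median or share, and 9 moved. With a score of at least 10, the calls with a member fell to 8, those between members to 1, the median distance to 30.5 kb, the share with both ends baited was 37.5% and the median reads 41.5; the alternative holds few calls by construction. Each pair counted once, or the browser list, gave 3 calls between members. With the member at the bait, 16.7% of calls had both ends baited. Without fragments that align to another listed fragment over at least 100 bp at 95% identity, 15 calls remained, since *FCER2*, *FCRL2*, *FCRL5*, *FCRLA* and *FCRLB* dropped out; repeats were not masked, and the longest alignments were 103 to 132 bp except for *FCRL5* (1111 bp). At 10 reads or more, 62 calls remained and their median distance was 49.0 kb in place of 120.3 kb. That value counts as unmoved only because the interval of the median is wide, 45.1 to 199 kb. With the same limit *FCGR2A* had 7 calls in place of 15, and by transcription starts *FCRL3* had 1 in place of 0. Low read counts limit the long calls of *FCGR2A*, *FCRLB*, *FCRL1*, *FCRL2* and *FCRL4*, each on 7 to 19 reads.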
